A study of Mus musculus with 18 samples.

Results

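The miR-130 and miR-301 family of microRNAs was followed in mouse adipose stromal cells (ASC), which are mesenchymal cells cultured from fat, and in the extracellular vesicles (EVs) they shed. The members were the loci named Mir301, Mir301b, Mir130a and Mir130b in the mouse GENCODE annotation, 4 of the 2009 miRNA hairpin loci counted, and Mir301 is the symbol for miR-301a. All samples carried the strain label NGL and came from adipose tissue of adult mice. The 18 libraries formed 4 groups. Primed EVs (n = 5) and primed ASC (n = 4) came from cells given interferon gamma for 24 h in medium with 2% EV-free serum. Naive EVs (n = 5) and naive ASC (n = 4) came from cells without it, and every culture then stayed in such medium for 48 h. EV RNA was isolated with the SeraMir column kit and cell RNA with TRIzol and RNeasy columns, so EV origin and isolation method cannot be told apart. The groups follow the source names, because the molecule subtype label reads as vesicle miRNA for the ASC libraries too. No label says that replicates came from separate animals or cultures, so each p-value reflects the spread among these libraries alone. Some titles share a number within a group. Primed EVs 1 and 5 are titled 5E+IFG2 and 5E+IFG1, and naive EVs 1 and 2 are titled 1+2E and 2E. No label says what these numbers stand for. In bulk RNA, fewer cells of a type and less RNA per cell cannot be told apart.

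A miRNA guides Argonaute proteins to messenger RNAs that pair with its seed, which spans bases 2 to 8 of the mature strand, and the targets are then silenced. The miR-130 and miR-301 miRNAs share a seed and can therefore recognise the same sites. They are known for repressing Pparg, the master transcription factor of fat cell formation, and for roles in growing vessels and in growth factor signalling. EVs carry miRNAs between cells, and the study asked how their small RNA differs from that of the parent cells and how priming changes it.

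The 3p strands of 3 members and the matching hairpin stretch of Mir301b are shown because the capitals, bases 2 to 8, are identical and the rest parts the members into 2 types. Sequences are from RefSeq on GRCm38.p6, and the Mir301b stretch runs from base 55 to base 77 of its hairpin.
miR-301a-3p: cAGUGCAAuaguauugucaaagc
Mir301b hairpin stretch: cAGUGCAAugguauugucaaagc
miR-130a-3p: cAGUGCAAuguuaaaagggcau
miR-130b-3p: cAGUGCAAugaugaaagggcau

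The miR-301a-3p strand and the Mir301b stretch matched each other at 22 of 23 bases, with the single difference A10G, counted from 1 at the 5′ end with the miR-301a-3p base first. The 130 strands matched at 20 of 22 bases, and the differences from miR-130a-3p to miR-130b-3p were U11A and A13G. Between the types 11 to 13 of 22 bases matched, with the first 9 or more identical. The hairpins also give a 5p strand with another seed, CUCUGAC in Mir301 and Mir301b, CUCUUUU in Mir130a and CUCUUUC in Mir130b. Counts are per hairpin, so they do not tell the 3p strand from the 5p strand.

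Mir301 lies on chromosome 11 from 87113004 to 87113089 (GRCm38, plus strand) in an intron of Ska2, a gene for a spindle and kinetochore protein. Mir130a lies on chromosome 2 from 84741115 to 84741178 (minus strand) in intergenic sequence. Mir130b, on chromosome 16 from 17124061 to 17124142, and Mir301b, from 17124400 to 17124496, lie 257 bases apart on the minus strand within an intron of 2610318N02Rik. Of other mouse loci with the same seed, Mir130c had 6 counts over all libraries, Mir6341 had 18 and Mir6389 had 0. The hairpins of Mir130b and Mir301b are printed because the pair share an intron and strand, and the capitals again mark the shared seed.
Mir130b hairpin: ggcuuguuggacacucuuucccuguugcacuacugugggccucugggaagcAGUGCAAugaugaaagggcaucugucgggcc
Mir301b hairpin: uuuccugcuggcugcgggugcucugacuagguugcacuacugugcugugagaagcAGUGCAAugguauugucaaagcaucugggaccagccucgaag

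Library totals ran from 613448 to 3052942 counts in EVs and from 180812 to 926183 in ASC, and the family held 60222 of 17629699 counts. Levels are given as CPM, counts relative to a library size scaled by TMM, a method that assumes most loci do not change. All 9 mesenchymal marker loci had counts in every group, although Mir199a-1 had 18 in all while its paralog Mir199a-2 had 635 or more per group. Markers of other cell types were also present. The 5 blood cell loci counted, of 6 listed, together ran from 1653 to 17178 CPM in EV libraries and from 75.8 to 369 CPM in ASC libraries. The endothelial locus Mir126a ran from 2251 to 10544 CPM in EVs and from 52.2 to 444 CPM in ASC. The 7 epithelial loci summed to 11.6 to 3358 CPM in EVs and 34.3 to 2220 CPM in ASC. Mir122 of liver had 16 counts in all primed EVs, 39 in all naive EVs, 1 in primed ASC and 0 in naive ASC. The other liver and serum locus, Mir192, had 4937 counts in all primed EVs, 4533 in all naive EVs, 476 in primed ASC and 946 in naive ASC, and the pair summed to 648 to 1483 CPM in EVs and 114 to 374 CPM in ASC. The summed mesenchymal loci were also higher in EVs, at 617484 CPM or more in each library, against 445135 CPM or less in ASC. Single loci of that list went both ways. Mir22, Mir143 and Mir21a were higher in every EV library than in any ASC library, and Mir10a, Mir10b and Mir199a-2 overlapped. Mir214 was lower in EVs, at 1000 to 2148 CPM against 4104 to 9777 CPM in ASC. So was Mir145a, at 1177 to 2366 CPM against 4843 to 13836 CPM.

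Mir301 differed more between EVs and cells than any other member. Naive EVs 1 to 5 held 3223, 1549, 2618, 1268 and 996 counts of Mir301, against 36, 40, 50 and 39 counts in naive ASC 1, 3, 4 and 5. In CPM these were 1580, 1840, 2362, 2106 and 1646 in naive EVs, against 61.8, 36.6, 45.2 and 48.2 in naive ASC. Every EV library lay far above every cell library. The mean level was 1907 ± 326 CPM in naive EVs (SD, n = 5) and 47.9 ± 10.4 CPM in naive ASC (SD, n = 4). The fitted difference was 40.04-fold (log2 fold change 5.32, with SE 0.39; Benjamini-Hochberg adjusted p = 9.46e-10 by edgeR's quasi-likelihood test).

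In primed samples the pattern was alike for Mir301, with 908, 4178, 1769, 1902 and 1002 counts in primed EVs 1 to 5, against 52, 28, 41 and 23 counts in primed ASC 2 to 5. The CPM values were 1706, 1558, 2002, 2059 and 2083 in primed EVs, against 47.3, 75.3, 170 and 28.6 in primed ASC. Again no EV library came near a cell library, and the highest cell value was in primed ASC 4, the shallowest library. Means were 1882 ± 236 CPM in primed EVs (SD, n = 5) and 80.3 ± 62.9 CPM in primed ASC (SD, n = 4), and the fitted difference was 25.3-fold. The log2 fold change was 4.66 (SE 0.39; Benjamini-Hochberg adjusted p = 2.72e-09 by edgeR's quasi-likelihood test), and without primed ASC 4 it was 5.27. Among all 245 loci tested, Mir301 ranked 9 by log2 fold change in the naive and 10 in the primed comparison.

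As a share of all counts, which uses no scaling factor, Mir301 held 0.175% ± 0.0222 of naive EV counts (SD, n = 5) and 0.00618% ± 0.00155 of naive ASC counts (n = 4). It held 0.141% ± 0.0140 in primed EVs (n = 5) and 0.0103% ± 0.00863 in primed ASC (n = 4). By mean level it ranked 47 of 245 loci in naive EVs and 160 in naive ASC, and 48 in primed EVs and 148 in primed ASC. Libraries whose titles share a leading number gave 4 naive pairs with EV to ASC ratios of 25.6 to 64.5 and 5 primed pairs with ratios of 12.1 to 72.9. All of these pairs, of which 2 use the same primed ASC 5 library, were higher in EVs. Any other pairing would be too, since every EV library lay above every ASC library. The blood cell and endothelial loci given above were also higher in EVs, and their part in the Mir301 result was not tested. Within primed ASC, Mir301, the summed blood cell loci and Mir126a had the same order of libraries. Primed ASC 4 was highest, with 170 CPM of Mir301, 369 CPM of blood cell loci and 444 CPM of Mir126a, and primed ASC 5 was lowest, with 28.6, 75.8 and 52.2 CPM. Of the single blood cell loci, Mir150, Mir144 and Mir223 were not highest in primed ASC 4. The mesenchymal sum ran the other way, from 228063 CPM in primed ASC 4 to 364151 CPM in primed ASC 5. The liver and serum sum was highest in primed ASC 5 and the epithelial sum in primed ASC 3. In naive ASC, Mir301, the blood cell sum and Mir126a were highest in library 1, at 61.8, 156 and 240 CPM. Over the 10 EV libraries Mir301 ran from 1558 to 2362 CPM, blood cell loci from 1653 to 17178 CPM and Mir126a from 2251 to 10544 CPM. The lowest value of all 3 was in primed EV 2, while Mir301 was highest in naive EV 3 and both marker sets in naive EV 4.

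**Figure D1:**
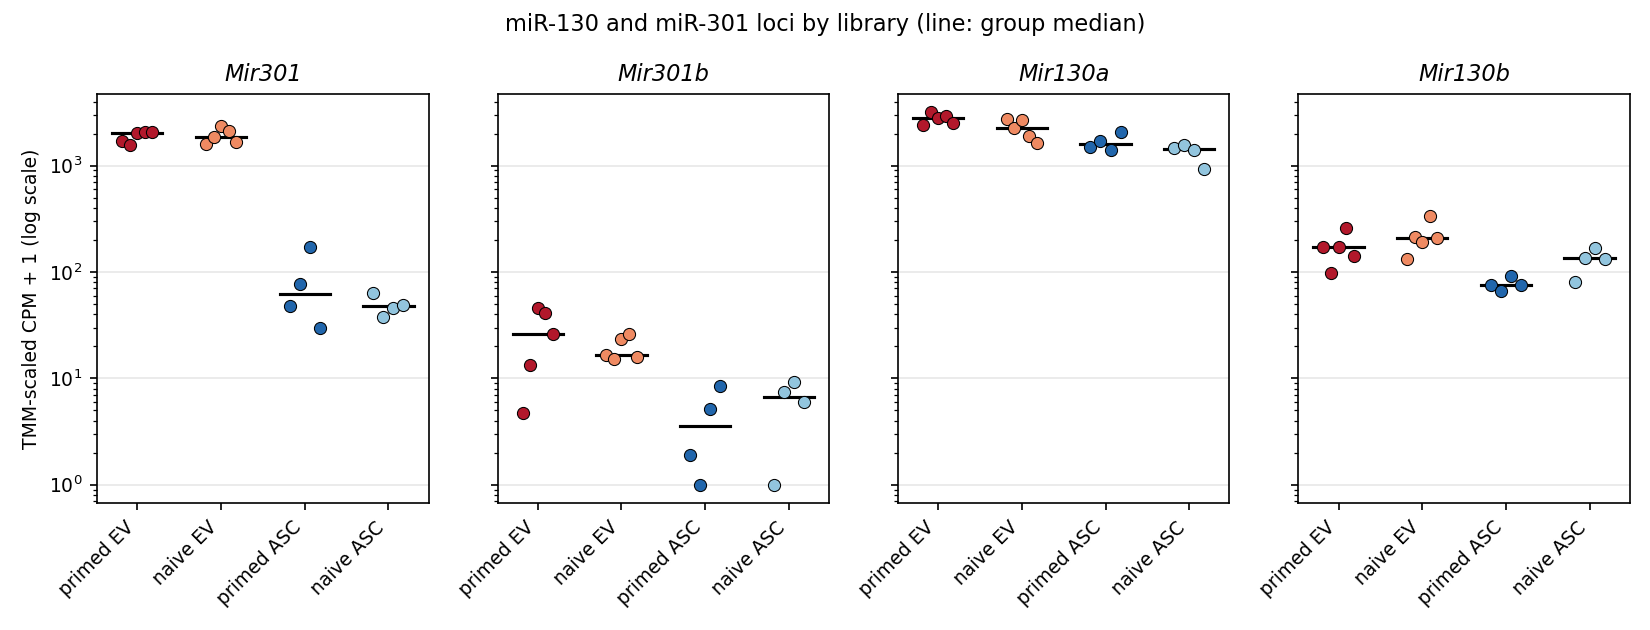
TMM-scaled CPM plus 1 on a log scale for each library (points) and the group medians (lines) of the 4 family loci, with groups along the horizontal axis. Mir301 runs from 1558 to 2362 CPM in EV libraries and from 28.6 to 170 CPM in ASC libraries, while Mir130a is between 926 and 3178 CPM in all 18 libraries.

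Mir301b, whose hairpin stretch matches the 3′ part of miR-301a-3p, was the rarest member. It was tested through its EV counts alone, since no ASC library reached the cutoff of the filter on low counts. Its fold changes, p-values and separation of libraries between EVs and cells are therefore no support for a difference. Mir301b had 32, 12, 25, 15 and 9 counts in naive EVs 1 to 5, against 0, 7, 9 and 4 counts in naive ASC 1, 3, 4 and 5. The EV values of 14.3 to 24.9 CPM did not overlap the cell values of 0 to 8.13 CPM. The 0 in naive ASC 1 allows up to 5.15 CPM, the level of 3 counts, which covers counting error only. The log2 fold change was 1.79 (SE 0.69; Benjamini-Hochberg adjusted p = 0.0291 by edgeR's quasi-likelihood test), or 3.47-fold. This call was lost without naive EV 3, naive EV 4 or naive ASC 1 (1.71, 1.67 and 1.47 by the same test, the smallest adjusted p being 0.052 and the largest 0.0685).

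Primed EVs 1 to 5 had 2, 33, 40, 37 and 12 counts of Mir301b, against 1, 0, 1 and 6 counts in primed ASC 2 to 5. Primed EV 1, at 3.76 CPM, lay below primed ASC 4 and 5, at 4.15 and 7.45 CPM, so the groups overlapped. The 0 in primed ASC 3 allows up to 8.07 CPM. The log2 fold change was 2.93 (SE 0.80; Benjamini-Hochberg adjusted p = 0.00330 by edgeR's quasi-likelihood test), or 7.63-fold, and it was 4.19 without primed ASC 5. As in the naive comparison, these values are no support, because Mir301b was tested through its EV counts alone. Because a single base parts miR-301a-3p from the Mir301b stretch, reads of Mir301 and Mir301b could be split between them by the counting, and Mir301b values are uncertain for that reason. Per 100 counts of Mir301 there were 0.220 to 2.26 counts of Mir301b in primed EVs, against 0 to 26.1 in primed ASC, and 0.775 to 1.18 in naive EVs, against 0 to 18 in naive ASC.

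Mir130a was the most abundant member in 16 of the 18 libraries and differed far less between EVs and cells. Naive EVs 1 to 5 had 2724, 2267, 2674, 1889 and 1633 CPM, against 1462, 1551, 1392 and 926 CPM in naive ASC 1, 3, 4 and 5. The lowest EV library stood just above the highest cell library. The log2 fold change of Mir130a was 0.75 (SE 0.20; Benjamini-Hochberg adjusted p = 0.00248 by edgeR's quasi-likelihood test), or 1.68-fold. In the primed samples it had 2401, 3178, 2777, 2899 and 2508 CPM in primed EVs 1 to 5, against 1490, 1705, 1395 and 2045 CPM in primed ASC 2 to 5. These groups did not overlap either, at a log2 fold change of 0.73 (SE 0.20; Benjamini-Hochberg adjusted p = 0.00293 by edgeR's quasi-likelihood test), or 1.66-fold.

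Mir130b had 67 to 266 counts in EV libraries and 22 to 186 in ASC libraries. Its level was 130, 214, 190, 337 and 208 CPM in naive EVs 1 to 5, against 78.9, 134, 168 and 132 CPM in naive ASC 1, 3, 4 and 5. Naive EV 1 lay below 3 of the cell libraries, so these groups overlapped. The log2 fold change of Mir130b was 0.74 (SE 0.30; Benjamini-Hochberg adjusted p = 0.0342 by edgeR's quasi-likelihood test), or 1.67-fold, and the call was lost without naive EV 4, naive ASC 1 or naive ASC 3 (0.53, 0.57 and 0.76, adjusted p from 0.0575 to 0.116). Primed EVs 1 to 5 had 169, 96.9, 172, 259 and 139 CPM, against 74.5, 64.5, 91.3 and 74.5 CPM in primed ASC 2 to 5. Here all EV libraries were above all cell libraries, at a log2 fold change of 1.14 (SE 0.31; Benjamini-Hochberg adjusted p = 0.00331 by edgeR's quasi-likelihood test), or 2.20-fold.

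The calls of the 130 members were lost when library totals alone set the scale. Apart from fits that left a library out, Mir130a kept its call in 10 of 11 alternatives in each comparison. Mir130b kept its call in 8 of 11 in the naive and 10 of 11 in the primed comparison. With library totals alone, Mir130a was at 0.29 and Mir130b at 0.26 on the log2 scale in the naive comparison (adjusted p = 0.150 and 0.417), and at 0.04 and 0.40 in the primed comparison (adjusted p = 0.863 and 0.243). Under that scaling Mir301b was at 1.32 (adjusted p = 0.0843) and 2.24 (adjusted p = 0.0153), and Mir301 kept its calls at 4.84 and 3.91. That scaling moved the all-locus median to -0.70 from -0.24 in the naive comparison and to -0.69 from 0.02 in the primed one. As a share of all counts Mir130a held 0.206% ± 0.0428 in naive EVs (SD, n = 5) and 0.168% ± 0.0168 in naive ASC (n = 4), and 0.209% ± 0.0412 in primed EVs (n = 5) and 0.203% ± 0.0244 in primed ASC (n = 4). Mir130b held 0.0199% ± 0.00666 in naive EVs and 0.0166% ± 0.00523 in naive ASC, and 0.0123% ± 0.00334 in primed EVs and 0.00946% ± 0.00188 in primed ASC.

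In number, 4 of 4 members passed as higher in naive EVs than in naive ASC, where 33.5% of all 245 loci passed in that direction, and 4 of 4 in primed EVs against primed ASC, where 35.9% did. The members' median log2 fold change was 1.27 beside -0.24 over all loci in the naive comparison, and 2.04 beside 0.02 in the primed one. The libraries did not overlap for 3 of 4 members in each comparison, Mir130b being the exception in the naive and Mir301b in the primed one, where EVs were above cells without overlap at 30.2% and 27.8% of all loci. All 4 members passed the filter on low counts, but Mir301b did so through EVs alone. It reached the filter's cutoff in 3 of 5 primed and 5 of 5 naive EV libraries and in 0 of 8 ASC libraries. Its direction in these counts is therefore no support, and the members' medians, which include its value, are none either. Each other member reached the cutoff in all 18 libraries.

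**Figure D2:**
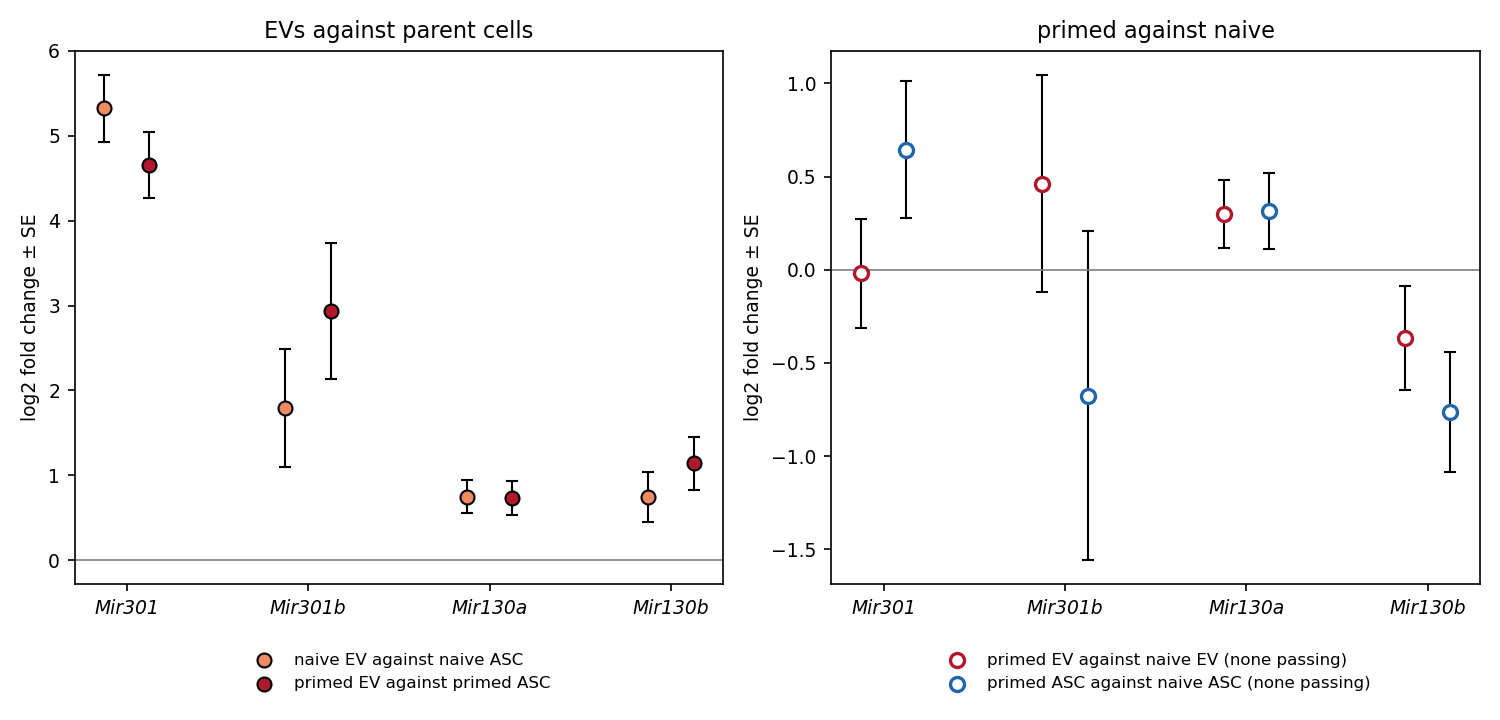
Log2 fold changes with SE bars of the 4 loci from the model of all libraries, for EVs over their parent cells (left) and primed over naive samples (right), with filled points for loci that passed and open points for loci that did not. Mir301 stands at 5.32 and 4.66 on the left, and no locus passed on the right.

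The make-up of the family, taken from counts within each library, uses no scaling. Mir301 made up 43.7% ± 5.07 of family counts in naive EVs (SD, n = 5) and 3.28% ± 1.00 in naive ASC (n = 4), and 39.0% ± 4.24 in primed EVs (n = 5) and 4.65% ± 3.90 in primed ASC (n = 4). The primed ASC mean was 2.78% without primed ASC 4. Mir130a made up 50.9% ± 6.77 in naive EVs and 87.7% ± 3.55 in naive ASC, and 57.0% ± 4.96 in primed EVs and 90.9% ± 4.76 in primed ASC. For every 100 counts of Mir130a there were 58.0 to 112 counts of Mir301 in naive EVs and 2.36 to 5.20 in naive ASC, and 49.0 to 83.1 in primed EVs and 1.40 to 12.2 in primed ASC. Neither pair of groups overlapped in this ratio. Mir301 exceeded Mir130a in 2 libraries, naive EV 4 and naive EV 5.

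The order by CPM was Mir130a, Mir301, Mir130b and Mir301b in 8 of 10 EV libraries. In all 4 naive ASC libraries and in 2 of 4 primed ASC libraries Mir130b stood above Mir301. The order of the group means was the same with CPM divided by hairpin length, although in primed ASC Mir301 and Mir130b then stood at 93.4 and 93.0 CPM per 100 bases and did not differ beyond their spread. In the chromosome 16 pair, Mir301b had 6.67 to 12.0 counts per 100 counts of Mir130b in naive EVs and 0 to 4.84 in naive ASC, without overlap. The ratio was 2.22 to 26.3 in primed EVs and 0 to 10 in primed ASC, with overlap. These ratios rest on 0 to 9 counts of Mir301b in each ASC library. The locus also passed the filter through EVs alone, so their direction is no support. The family as a whole held 0.402% ± 0.0472 of counts in naive EVs (SD, n = 5) and 0.191% ± 0.0131 in naive ASC (n = 4), and 0.364% ± 0.0427 in primed EVs (n = 5) and 0.224% ± 0.0206 in primed ASC (n = 4).

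**Figure D3:**
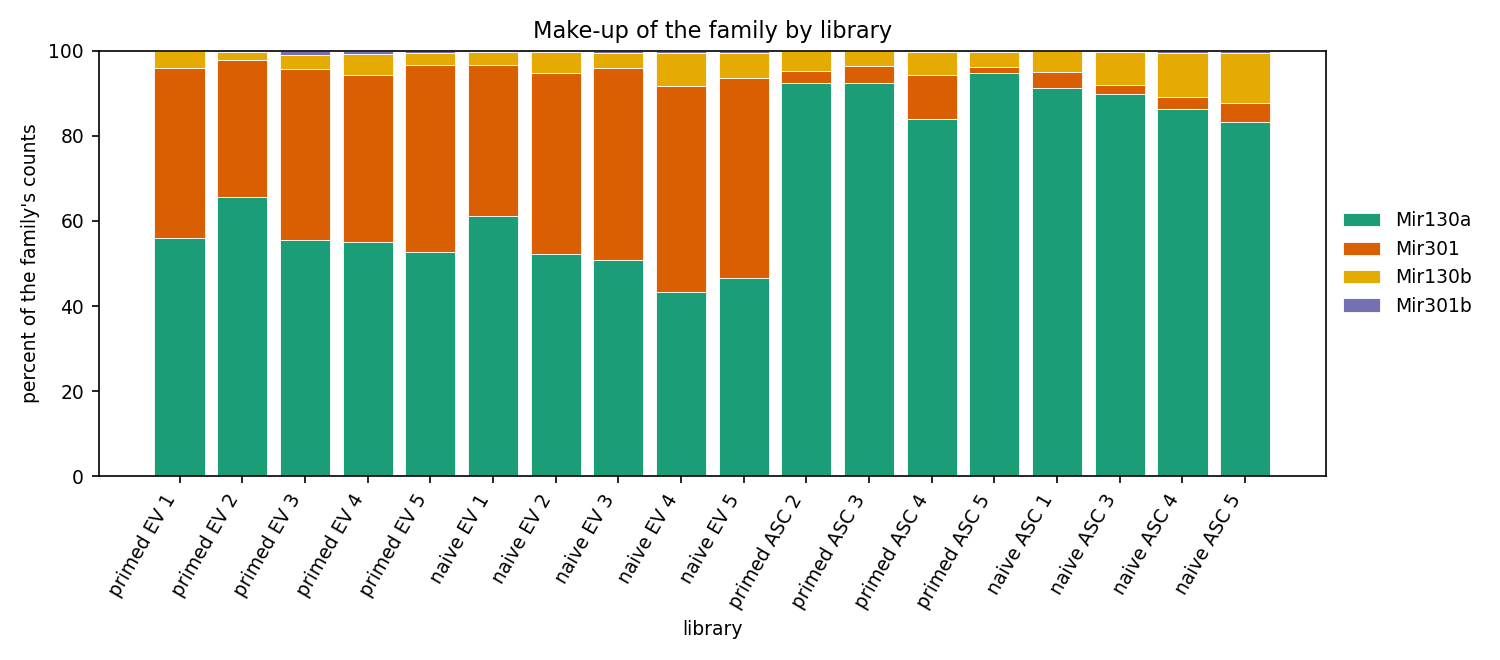
Percent of the family's counts held by each locus (stacked bars) in each of the 18 libraries. Mir301 holds 32.1% to 48.3% in EV libraries and 1.33% to 10.2% in ASC libraries, where Mir130a holds 83.3% to 94.9%.

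Priming of the cells with interferon gamma was next compared within EVs. Mir301 averaged 1882 ± 236 CPM in primed EVs (SD, n = 5) and 1907 ± 326 CPM in naive EVs (n = 5), a log2 fold change of -0.02 (SE 0.29; Benjamini-Hochberg adjusted p = 0.993 by edgeR's quasi-likelihood test). Mir130a averaged 2753 ± 311 CPM in primed EVs and 2237 ± 478 CPM in naive EVs (0.30, SE 0.18). The means of Mir130b were 167 ± 59.4 CPM in primed EVs and 216 ± 75.4 CPM in naive EVs (-0.37, SE 0.28), and those of Mir301b were 25.3 ± 17.7 CPM in primed EVs and 18.5 ± 4.91 CPM in naive EVs (0.46, SE 0.58). For all 4 members the primed and naive EV libraries overlapped, and 0 of 4 passed (adjusted p from 0.572 to 0.993, smallest unadjusted p = 0.117), where 0.816% of all loci passed in either direction and 10.2% had an unadjusted p under 0.05. Libraries of the 2 EV groups stood apart without overlap at 2.45% of all loci with primed EVs higher and at 0.00% with primed EVs lower. DESeq2 also called 0 of the 4.

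In cells, Mir130b averaged 76.2 ± 11.1 CPM in primed ASC (SD, n = 4) and 128 ± 36.8 CPM in naive ASC (n = 4). Primed ASC 2 to 5 had 74.5, 64.5, 91.3 and 74.5 CPM, against 78.9, 134, 168 and 132 CPM in naive ASC 1, 3, 4 and 5, and naive ASC 1 lay within the primed range. The log2 fold change of -0.76 (SE 0.32) did not pass (Benjamini-Hochberg adjusted p = 0.158 by edgeR's quasi-likelihood test, unadjusted p = 0.0285). It passed with library totals counted without the 5 most abundant loci (-1.01, adjusted p = 0.0346).

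Mir301 was at 0.64 (SE 0.37) in primed against naive ASC, and its value turned on single libraries, with 0.04 without primed ASC 4 and 1.05 (adjusted p = 0.0310, edgeR quasi-likelihood test) without primed ASC 5. Mir130a averaged 1659 ± 288 CPM in primed ASC and 1333 ± 279 CPM in naive ASC, at 0.32 (SE 0.20), and Mir301b was at -0.68 (SE 0.88) on 8 counts in primed and 20 counts in naive ASC. In all 0 of 4 members passed (adjusted p from 0.158 to 0.669 by edgeR's quasi-likelihood test), where 10.2% of all loci did. An unadjusted p under 0.05 was found for 1 member and for 23.3% of all loci. All 4 members overlapped between primed and naive ASC, while 6.53% of all loci were higher and 4.90% lower without overlap. DESeq2 called 0 of the 3 members to which it gave an adjusted p. The difference between the priming effects, EVs minus ASC, was -0.66 for Mir301, 1.14 for Mir301b, -0.02 for Mir130a and 0.40 for Mir130b (SE 0.47, 1.06, 0.27 and 0.42). None of the 4 passed in that test of the difference by edgeR's quasi-likelihood test (adjusted p from 0.545 to 0.989), and 0.00% of all loci did, with 10.6% at an unadjusted p under 0.05. The smallest unadjusted p of a member there was 0.172, and DESeq2 called 0 of the 4.

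A list of 7 other loci, chosen from those with the family seed or 6 letters of it, was compared next. Of these, Mir721 was not analysed here, Mir19b-1 and Mir19b-2 had 10 and 37 counts and were not tested, and 4 passed the filter on low counts, namely Mir148a, Mir148b and Mir152, whose seed is CAGUGCA, and Mir19a, whose seed is GUGCAAA. In naive EVs against naive ASC 2 of the 4 rose and 1 fell, where 33.5% of all loci rose and 32.7% fell. Mir19a, of the growth-linked 17-92 cluster, averaged 84.4 CPM in naive EVs and 2.72 CPM in naive ASC (4.86, SE 0.46). It had 0 to 4.15 CPM in ASC libraries and, like Mir301b, passed the filter through EVs alone. Its direction is therefore no support in either comparison of EVs with cells. Mir148a averaged 9816 CPM in naive EVs and 4345 CPM in naive ASC (1.18, SE 0.21). Mir148b fell by 0.58 on the log2 scale, to 1226 CPM in naive EVs against 1832 CPM in naive ASC, and Mir152 was at -0.32 without passing. In primed EVs against primed ASC, Mir19a and Mir148a passed again at 5.11 and 1.68, 0 of the 4 fell, and Mir148b and Mir152 were at -0.24 and 0.15. Of all loci, 35.9% rose and 32.2% fell in that comparison. Mir350, whose 5p seed AAGUGCA also holds 6 of the letters, was not on the list and is named after its values were seen. It averaged 50.9 CPM in naive EVs and 119.8 CPM in naive ASC and fell by 1.23 on the log2 scale (SE 0.29; adjusted p = 0.000964 by edgeR's quasi-likelihood test), and it fell by 1.27 in primed EVs against primed ASC. With it, the 5 tested loci stood at log2 fold changes from -1.23 to 4.86 in the naive comparison.

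**Figure D4:**
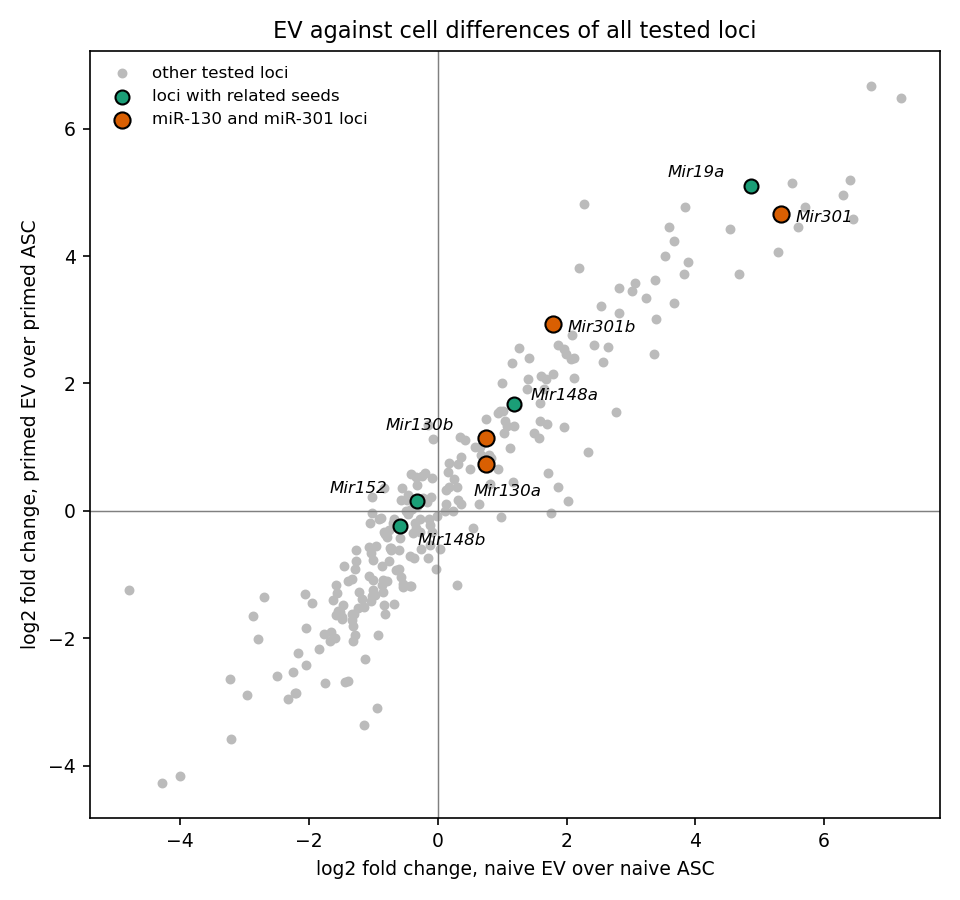
Log2 fold changes of all 245 tested loci for naive EVs over naive ASC (horizontal) and primed EVs over primed ASC (vertical), 2 comparisons that share no library but come from 1 model. Mir301 lies at 5.32 and 4.66 beside Mir19a at 4.86 and 5.11, and Mir130a lies at 0.75 and 0.73.

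Of 14 other loci linked to fat cell formation, 10 were tested. In naive EVs against naive ASC 3 of the 10 rose and 1 fell, beside 33.5% and 32.7% of all loci. In primed EVs against primed ASC 4 of the 10 rose and 1 fell, beside 35.9% and 32.2% of all loci. Of the 4 most abundant, Mir143, which promotes fat cell formation, was at 1.15 in the naive and 2.32 in the primed comparison and passed in both. Mir27b, like miR-130 known to repress Pparg, passed at 1.04 and 1.41. Mir222 was at -0.37 without passing in the naive comparison and fell by 0.74 on the log2 scale in the primed one, and Mir103-1 passed in neither, at -0.39 and 0.03. The others that passed, named after their values were seen, were Mir27a (1.18 and 1.63 in both comparisons), Mir107 (-1.28, naive) and Mir221 (0.66, primed). The list's median was 0.12 in the naive and 0.07 in the primed comparison, beside -0.24 and 0.02 over all loci. Within EVs 0 of the 10 passed between primed and naive samples by edgeR's quasi-likelihood test, beside 0.816% of all loci. In primed against naive ASC 1 of the 10 passed, beside 10.2% of all loci. This was Mir143, which fell by 0.89 on the log2 scale.

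The loci whose log2 CPM followed a member most closely over the 18 libraries are given as a description, since all points share libraries and their scaling, and the libraries span both EVs and cells. For Mir301 these were Mir340 (Pearson r = 0.993), Mir30e (0.983) and the endothelial Mir126a (0.982). Mir340 averaged 528 CPM in naive EVs and 35.4 CPM in naive ASC. For Mir130a they were Mir34c (0.905), Mir22 (0.885) and Mir376c (0.883), for Mir130b they were Mir93 (0.837), Mir335 (0.830) and Mir17 (0.825), and for Mir301b they were Mir196b (0.882), Mir181d (0.819) and Mir190a (0.818).

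With the group means taken out, Mir340 again came first for Mir301 (0.838), followed by Mir320 (0.807) and Mir126a (0.768). Within groups Mir301 varied most in primed ASC, from 28.6 CPM in primed ASC 5 to 170 CPM in primed ASC 4. Every r of its deviations, also that with Mir130a, therefore leans on those libraries. For Mir130a the closest were Mir872 (0.814), Mir29a (0.809) and Mir376c (0.718). Mir130b was followed by the epithelial Mir200b (0.756), by Mir25 (0.720) and by the epithelial Mir205 (0.714), and Mir301b by Mir155 (0.732), Mir196b (0.721) and Mir28a (0.698). Among the members themselves, the deviations of the chromosome 16 neighbours Mir130b and Mir301b had an r of 0.523, those of Mir301 and Mir130a an r of -0.31 and those of Mir130a and Mir130b an r of -0.38.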

How the data were processed

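The authors deposited raw counts per miRNA hairpin locus, 1 file per library, made with featureCounts 1.5.3 on Ensembl release 76 without regard to strand, per the file headers. The submitters' processing notes name STAR 2.0.4, featureCounts 1.45 and GRCm38. How reads were trimmed and aligned is not given in the sources used here. No label or header names molecular identifiers. Names are GENCODE M21 symbols, matched by identifier at 1894 of 2009 loci, and all 4 members matched with identical coordinates.

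Counts were analysed with edgeR 4.0.16 in R 4.3.3. filterByExpr kept 245 loci with 99.9573% of counts. Libraries were scaled by TMM, a model with a mean for each of the 4 groups was fitted to the 18 libraries, and contrasts were tested with the quasi-likelihood test, adjusted by Benjamini-Hochberg over the 245 loci at a threshold of 0.05. The SE is the size of a log2 fold change divided by the root of its F statistic. The code was tested on simulated data. DESeq2 1.42.0 and limma 3.58.1 served as alternatives. All 4 members were named, up to 4 loci per list by mean level, and the 3 loci most like each member. The members and lists were chosen with earlier results of these data known.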

Additional observations from a re-analysis of the deposited data

Results flagged for a closer look

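In primed EV 2, the deepest library, Mir130a held 65.6% of the family's counts, against 52.7% to 56.1% in the other 4 primed EV libraries. Its gap to the next library was 0.738 of the group's range. It was the single such value among 36 sets of libraries examined, where chance alone would flag about 1 set in 20.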

How the results depend on the processing

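Mir301 kept its calls in both comparisons of EVs with cells under all alternatives run, at 4.84 to 5.68 (naive) and 3.91 to 5.10 (primed) on the log2 scale, and at 5.21 to 5.46 and 4.32 to 5.27 with each library left out. With library totals alone, 1 member, Mir301, passed as higher in naive EVs and 2, Mir301 and Mir301b, in primed EVs, in place of 4 each. In the main model 33.5% and 35.9% of all loci passed in that direction. Mir301b passed the filter through EVs alone, so its calls in these and the following counts are no support. With each library left out, 2 to 4 members passed as higher in naive EVs, with 2 without naive EV 4 or naive ASC 1. Mir130b also lost its naive call with no filter (0.73) and limma-voom (0.65). Values near 0 changed sign. Mir301 in primed against naive EVs was 0.035 with no filter and 0.034 with a replicate block (title numbers as block), and -0.079 to 0.082 with each library left out. Mir130a in the difference of priming effects was 0.063 without the 5 most abundant loci in the totals, 0.087 with no filter and 0.00074 with the replicate block, and -0.16 to 0.072 with each library left out.

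In primed against naive ASC, 1 member passed as lower, Mir130b, with totals without the 5 most abundant loci and with the replicate block (-0.81, adjusted p = 0.0362 by edgeR's quasi-likelihood test). Between 0 and 1 member passed as higher with each library left out, the 1 being Mir301 without primed ASC 5. Loci passing in primed against naive EVs numbered 2, and 1 with TMMwsp, library totals alone, totals without the 5 most abundant loci or a minimum of 10 CPM, 8 with no filter, 5 with DESeq2, 7 with the replicate block, and 2 to 8 with each library left out (8 without primed EV 2). In ASC they numbered 25, 40 with DESeq2, and 6 to 35 with each library left out (6 without naive ASC 4, 35 without primed ASC 5). In the difference of effects they numbered 0, 3 with no filter or DESeq2, and 0 to 12 with each library left out (12 without primed ASC 5). The replicate block changed no other call. The numbers were not taken as pairs, since in each comparison the deviations of some same-numbered pair correlated at 0.0755 or less. In none did every library correlate best with its own number. Other same-numbered pairs correlated at up to 0.525. Against ASC, 3 of 4 naive and 3 of 5 primed EV libraries correlated best with a library of their own title number. The cause of the changes in calls was not tested. ASC libraries hold 0 to 9 counts of Mir301b, which limits its precision.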
